A study of Mus musculus with 6 samples.

Results

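The genes of the interferon response, the interferon receptors, the Stat transcription factors and the interferon regulatory factors (Irf) were examined in mIMCD3 cells, a mouse epithelial line from the last segment of the collecting duct, after 1 h with aldosterone or vehicle. The members were every probe set with exactly 1 annotated gene symbol beginning with Ifi and a digit, Ifit, Ifitm, Isg, Stat and a digit, Gbp, Oas, Ifngr or Ifnar, or consisting of Irf and a number, Mx1 or Mx2. They numbered 49 of 12422 probe sets and stood for 42 genes. Another 4 probe sets carried such a symbol together with others and were left out.

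The study treated the cells with vehicle or with aldosterone, the adrenal steroid that raises sodium reabsorption in the distal nephron, and asked how the cells respond early to the hormone. There were 3 replications of the experiment with a vehicle and an aldosterone array in each, 6 arrays in all. The cells of both groups came from the same line, which was established from mice carrying the simian virus early region and is therefore a transformed model of this segment; the labels give no genotype change, and the hormone dose is not given in the sources used here. The labels do not say whether the replications were separate cultures, so the p-values measure only the spread between these samples, which may be technical.

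Interferons signal through paired receptors. Type I interferons bind Ifnar1 and Ifnar2, and interferon gamma binds Ifngr1 and Ifngr2; Janus kinases then phosphorylate Stat proteins. A complex of Stat proteins with Irf9 binds the interferon-stimulated response element (ISRE) of antiviral genes such as the Ifit, Isg and Mx genes, while Stat dimers bind the gamma-activated sequence (GAS) of genes such as Irf1 and the guanylate-binding proteins (Gbp). Kidney epithelium carries these receptors and can mount this response, and corticosteroids acting through the glucocorticoid receptor are known to dampen many inflammatory genes. The mineralocorticoid and glucocorticoid receptors bind a palindromic steroid response element.

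To show the elements these genes are known for, promoters were taken from RefSeq genes of assembly GRCm38.p6, as windows from 250 bases before to 50 bases after each gene start, and 37 of the 42 member genes had one. Those without were Ifi204, Ifi27, Ifi27l2a, Mx1 and Mx2. The core of the ISRE, GAAA and GAAA with any 2 bases between them, searched on both strands and with overlaps allowed, was found in 12 of the 37 genes (32.4%), against 3.99% of all 27025 genes with such windows. The GAS, TTCNNNGAA, which reads alike on both strands, was found in 11 of the 37 (29.7%), against 9.55% of all genes. The steroid response element, GNACA and TGTNC with any 3 bases between them, also alike on both strands, was found in 0 of the 37 and in 0.537% of all genes. A match describes letters only, and the lack of one says only that these letters are not in this window. The genes with an ISRE core were Ifit1, Ifit3, Isg15, Ifitm2, Ifitm3, Gbp2, Gbp2b, Gbp3, Gbp7, Oas1g, Stat4 and Ifi207.

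The 200 bases before the start are printed for some members as examples, 5′ to 3′ on the gene's strand and in lower case. Ifit3 is shown because it was the member called between replications and Ifit1 as a relative with the same motif, Isg15 and Gbp3 because they were higher with aldosterone in every replication, and capitals mark the ISRE cores, which read TTTC, any 2 bases and TTTC where they lie on the other strand.
Ifit1, chr19:34640689-34640888, plus strand: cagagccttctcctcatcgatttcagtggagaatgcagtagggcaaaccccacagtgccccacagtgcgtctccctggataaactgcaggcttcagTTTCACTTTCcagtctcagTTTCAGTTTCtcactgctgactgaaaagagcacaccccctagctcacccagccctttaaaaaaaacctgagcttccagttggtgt
Ifit3, chr19:34583329-34583528, plus strand: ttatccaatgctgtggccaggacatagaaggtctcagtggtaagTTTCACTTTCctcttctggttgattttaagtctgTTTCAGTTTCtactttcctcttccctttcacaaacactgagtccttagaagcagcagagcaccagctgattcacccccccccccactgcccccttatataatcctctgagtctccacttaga
Isg15, chr4:156200819-156201018, minus strand: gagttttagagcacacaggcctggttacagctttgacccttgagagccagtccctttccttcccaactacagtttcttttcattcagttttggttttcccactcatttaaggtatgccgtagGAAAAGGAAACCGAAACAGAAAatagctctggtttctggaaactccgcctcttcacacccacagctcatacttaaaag
Gbp3, chr3:142559844-142560043, plus strand: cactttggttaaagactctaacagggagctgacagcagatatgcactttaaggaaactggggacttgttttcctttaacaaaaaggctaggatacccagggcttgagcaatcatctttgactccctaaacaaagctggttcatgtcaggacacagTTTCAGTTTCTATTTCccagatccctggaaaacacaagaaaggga
Ifit1 and Ifit3 each held 2 separate cores, Isg15 held 3 that overlap in a single run, and Gbp3 held 2 that overlap. Irf9 and Ifitm3 were also higher with aldosterone in every replication and are not printed. No ISRE core was found for Irf9, and those of Ifitm3 lie after the gene start. For contrast, Irf1 is printed with its GAS in capitals, and Ifit2, which differed from Ifit1 and Ifit3 in having no ISRE core in its windows, is printed without capitals.
Irf1, chr11:53769814-53770013, plus strand: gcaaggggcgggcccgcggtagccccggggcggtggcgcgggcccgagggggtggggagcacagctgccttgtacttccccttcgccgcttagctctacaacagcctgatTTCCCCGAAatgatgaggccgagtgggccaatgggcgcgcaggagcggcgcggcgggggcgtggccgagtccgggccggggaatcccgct
Ifit2, chr19:34550494-34550693, plus strand: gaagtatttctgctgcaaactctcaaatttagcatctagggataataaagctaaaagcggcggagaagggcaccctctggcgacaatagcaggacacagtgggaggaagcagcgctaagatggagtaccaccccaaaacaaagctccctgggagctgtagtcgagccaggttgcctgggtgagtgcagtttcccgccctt

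The deposited values were linear intensities. On 5 arrays they shared a scale, with trimmed means of 2488 to 2493, and the aldosterone array of replication 3 lay lower by a factor of 28.8 and was brought to the others by scaling. Values below are such scaled intensities unless a log2 difference is named, and a log2 difference is aldosterone minus vehicle on the scale log2(intensity + 53.0), which understates changes of dim probe sets. Intensities of different probe sets are not read as relative amounts of their transcripts. They are ranked only for the limit of testing and to pick a gene's brightest probe set, and added only in sums of markers. Of the 49 member probe sets, 34, standing for 30 genes, had a mean log2 value of at least 8.87 and were tested, as were 7453 of all 12422. All 8 epithelial markers on the array passed this limit, and of 8 collecting duct markers on it only Tfcp2l1 and Hoxb7 did, while Aqp2, the vasopressin-regulated water channel, did not. Of 14 leukocyte markers on the array 7 passed, namely Cd14, Cd68, Cd79a, Itgax, Csf1r, Cd52 and Laptm5, and 7 did not, Ptprc, Cd3e, Cd3d, Itgam, Lyz2, Adgre1 and Coro1a. The summed intensity of the 14 leukocyte markers ranged from 9606 to 13273 with vehicle and from 8181 to 10913 with aldosterone. A large part of these sums was Cd14, which alone read 4722 to 6998 with vehicle and 4211 to 5694 with aldosterone.

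The 15 member probe sets below the limit were those of Irf4, Stat4, Gbp2b, Ifi202b, Ifi204 (3 probe sets), Ifi207, Ifi209, Ifi27l2a, Ifitm6, Mx1, Mx2 and Oas1g, and a second probe set of Irf3. They read from 6.37 to 565 over all arrays, and 2 of them were higher and 3 lower with aldosterone in all 3 replications. The 15 included the antiviral GTPases Mx1 and Mx2 and the synthetase Oas1g, whose products block viral replication, and Irf4, a factor of lymphoid cells. At the edge of the limit, Ifitm2 was the dimmest member tested, with a mean log2 value of 8.98, and Mx2 the brightest not tested, with 8.67.

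Aldosterone at 1 h moved no member past the threshold. By limma, 0 of the 34 tested members had an adjusted p under 0.05, as was the case for all tested probe sets (0.0% of 7453), and the smallest adjusted p among the members was 0.9995. No member reached an unadjusted p under 0.05, against 72 of all tested probe sets (0.966%). With the replication as a block, 1 member, Isg15, had an unadjusted p under 0.05, 0.0272 by limma, against 3.35% of all tested probe sets; its adjusted p in that fit was 0.998. The members' log2 differences ran from -0.25 for Ifit2 to 0.48 for Ifitm2, with a median of 0.03, and that of all tested probe sets was -0.0003. For comparison, the aldosterone-induced kinase gene Sgk1 had a log2 difference of 1.63 on the same arrays. Sgk1 did not pass the threshold either, with an adjusted p by limma of 0.242 on group alone and 0.0509 with the block. Failing the threshold on these arrays therefore does not show that a gene was unchanged. All values here are levels in bulk RNA, in which fewer cells of a type and less RNA per cell cannot be told apart.

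The median standard error (SE) of a member's log2 difference was 0.224 in the fit on group alone and 0.177 with the replicate block, with 3 arrays a group in each. For 30 of the 34 members the 95% interval on group alone lay within a 2-fold change in both directions (87.1% of all tested probe sets), and for 33 of them it did with the block (92.1%). The exceptions on group alone were Ifit1, with an interval of the log2 difference from -1.20 to 0.71, Ifit3, from -0.80 to 1.07, Ifi47, from -0.61 to 1.04, and Ifitm2, from -0.36 to 1.31. With the block, only the interval of Ifitm2, from -0.29 to 1.25, went past 2-fold.

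**Figure D1:**
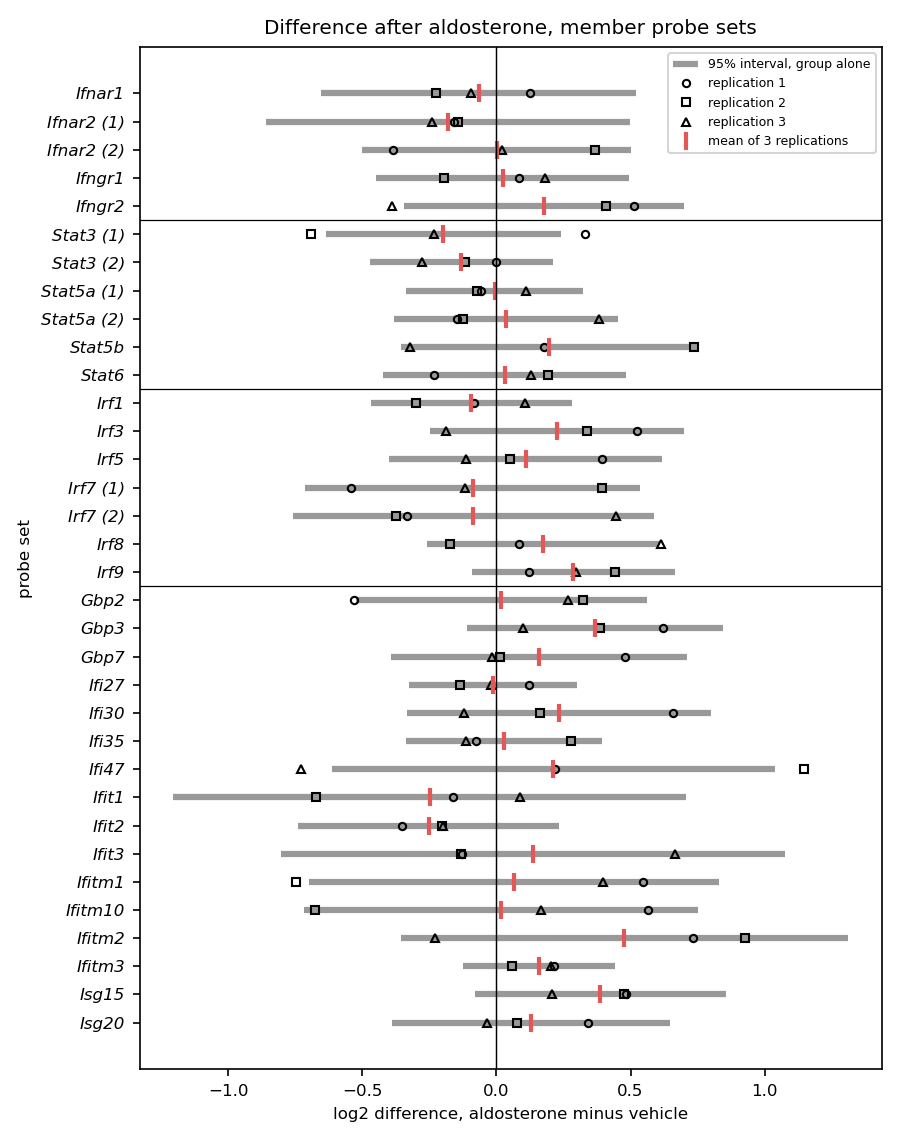
Log2 difference after aldosterone for the 34 tested member probe sets, ordered as receptors, Stat factors, Irf factors and induced genes; open symbols are the 3 replications, the red bar is their mean and the grey bar the 95% interval of the fit on group alone. All grey bars cross 0, and the widest belong to Ifit1 and Ifit3. Numbers in brackets count the probe sets of a gene in the order they are described in the text.

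**Figure D2:**
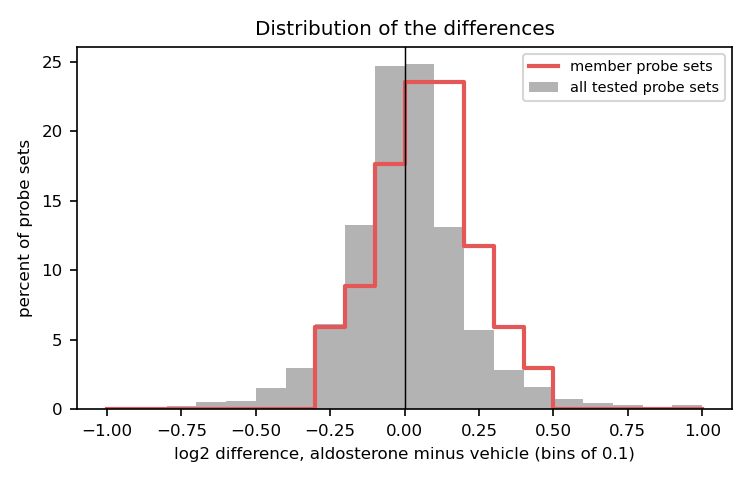
Share of probe sets, in percent, in bins of 0.1 of the log2 difference between aldosterone and vehicle; the grey bars are the 7453 tested probe sets, with values beyond 1 or -1 in the outermost bins, and the red line the 34 tested members. The members lie between -0.25 and 0.48.

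By sign, 23 of the 34 members lay above 0 (67.6%), against 49.9% of all tested probe sets. In all 3 replications 4 members were higher, or 11.8% of them, against 10.5% of all tested probe sets, and 2 were lower, or 5.88%, against 11.5%. The higher ones were Isg15, Gbp3, Irf9 and Ifitm3, and the lower ones Ifit2 and a probe set of Ifnar2. Both shares rest on a few members each, and neither is read as a result about the list. The members' median log2 difference was 0.12 in replication 1, 0.03 in replication 2 and 0.002 in replication 3, and it was -0.03 without replication 3.

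**Figure D3:**
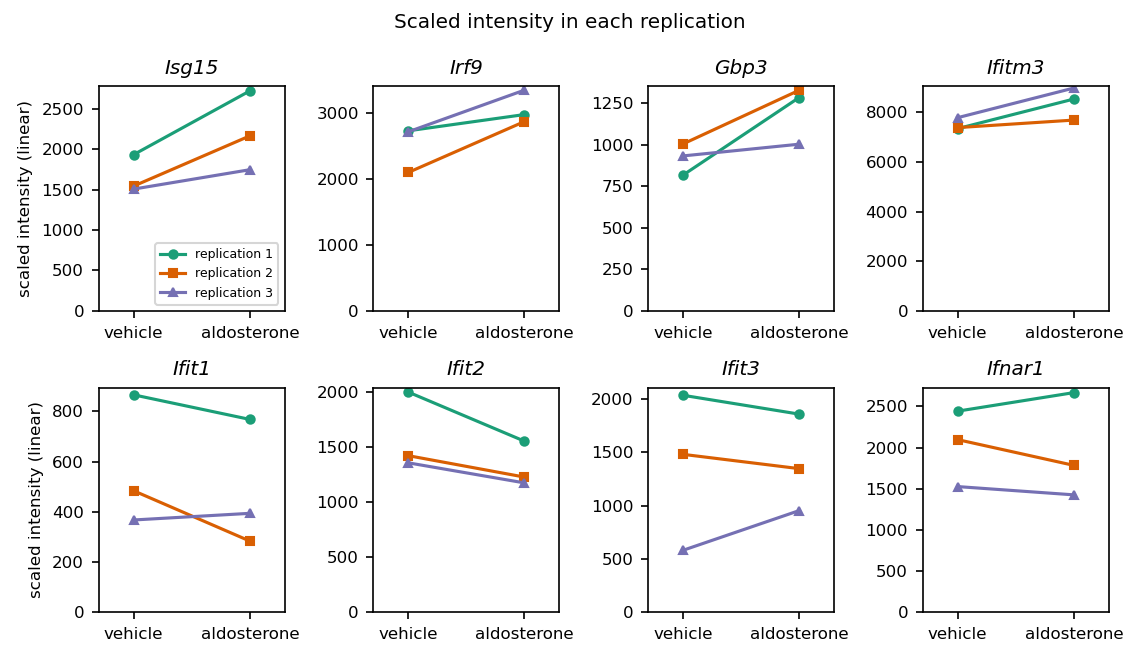
Scaled intensity of 8 member probe sets with vehicle and aldosterone, each line joining the 2 arrays of a replication; every linear axis starts at 0. Isg15, Irf9, Gbp3 and Ifitm3 are higher with aldosterone on all 3 lines and Ifit2 is lower on all 3, while Ifit1, Ifit3 and Ifnar1 differ more between lines than along them.

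The receptors were all above the limit for testing, with 3 probe sets above and 2 below 0. Ifnar1 read 2442, 2097 and 1527 after vehicle in replications 1 to 3 and 2667, 1784 and 1426 after aldosterone. Its order over replications was the same in both groups, and its log2 difference was -0.07 ± 0.261 (SE). Ifnar2 had a pair of probe sets. The probe set 101014_at read 1297, 1606 and 878 after vehicle and 1158, 1449 and 735 after aldosterone, lower within every replication, and the log2 difference was -0.18 ± 0.301 (SE) on group alone and ± 0.180 with the block. The probe set 101015_s_at read 1339, 851 and 1069 after vehicle and 1014, 1114 and 1085 after aldosterone, with a log2 difference of 0.002, so that the pair did not agree on a direction.

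Ifngr1, the ligand-binding chain for interferon gamma, read 3726, 3011 and 3824 after vehicle and 3949, 2620 and 4349 after aldosterone, lowest in replication 2 in both groups, with a log2 difference of 0.02 ± 0.210 (SE). Ifngr2, the signalling chain of the same receptor, read 3068, 2250 and 3384 after vehicle and 4399, 3007 and 2572 after aldosterone. It was higher in replications 1 and 2 and lower in replication 3, and its log2 difference was 0.18 ± 0.233 (SE).

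The Stat factors, which carry the signal of cytokine receptors to the nucleus, split into 3 probe sets above and 3 below 0, with a median log2 difference of 0.01. Stat3, activated by the interleukin-6 family, had 2 probe sets with negative log2 differences. The probe set 99099_at read 4090, 6776 and 5294 after vehicle and 5158, 4175 and 4494 after aldosterone, a log2 difference of -0.20 ± 0.195 (SE). The vehicle array of replication 2 was the high one, and without replication 2 the log2 difference was 0.05. The probe set 99100_at read 3249, 3883 and 3628 after vehicle and 3250, 3580 and 2988 after aldosterone, a log2 difference of -0.13 ± 0.152 (SE), level in replication 1 and lower in the other two.

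Stat5a, which prolactin and growth hormone activate, read 3710, 4345 and 3795 after vehicle and 3563, 4131 and 4098 after aldosterone in 100422_i_at. Its other probe set, 100423_f_at, read 3070, 2772 and 2022 after vehicle and 2766, 2539 and 2650 after aldosterone. Their log2 differences were -0.01 and 0.04, and the letter f marks a probe set that can bind transcripts of related genes. The close relative Stat5b read 911, 891 and 1278 after vehicle and 1036, 1520 and 1010 after aldosterone. Its single high array was the aldosterone array of replication 2, and its log2 difference was 0.20 ± 0.245 (SE). Stat6, the factor of interleukin-4 signalling, read 3636, 3247 and 4461 after vehicle and 3086, 3721 and 4888 after aldosterone, highest in replication 3 in both groups, with a log2 difference of 0.03.

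Irf9, the DNA-binding subunit of the complex that acts on the ISRE, was the only tested member whose groups did not overlap, which 1.91% of all tested probe sets showed in the higher direction and 2.27% in the lower. It read 2725, 2095 and 2710 after vehicle and 2971, 2866 and 3341 after aldosterone. The log2 difference was 0.29 ± 0.168 (SE) on group alone and ± 0.128 with the block, where the unadjusted p by limma was 0.0511. It ran from 0.16 to 0.37 when arrays or replications were left out.

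The other Irf factors went in both directions. Irf1, which interferon gamma induces and which itself activates antiviral and antigen-presentation genes, read 5058, 5021 and 5559 after vehicle and 4769, 4067 and 5988 after aldosterone; its log2 difference was -0.09 ± 0.167 (SE). Irf3, which virus sensors activate to switch on interferon beta, read 963, 957 and 1257 after vehicle and 1409, 1225 and 1098 after aldosterone. It was higher in replications 1 and 2 and lower in replication 3, and its log2 difference was 0.23 ± 0.210 (SE).

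Irf7, the factor that amplifies interferon alpha production, had a pair of tested probe sets. In 104669_at it read 1361, 722 and 804 after vehicle and 918, 965 and 737 after aldosterone, and in 162202_f_at 867, 725 and 441 after vehicle and 677, 548 and 621 after aldosterone. Both had a log2 difference of -0.09, but they disagreed on replications 2 and 3. Irf5, a factor downstream of Toll-like receptors, read 918, 1175 and 944 after vehicle and 1222, 1219 and 868 after aldosterone, a log2 difference of 0.11 ± 0.226 (SE). Irf8, best known from myeloid cells, read 1952, 2238 and 1498 after vehicle and 2073, 1977 and 2321 after aldosterone, a log2 difference of 0.17 ± 0.192 (SE). Its direction changed without replication 3, where the log2 difference was -0.05.

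Among the induced genes, Isg15, a ubiquitin-like protein that interferon induces and that is attached to other proteins, read 1931, 1543 and 1506 after vehicle and 2720, 2164 and 1745 after aldosterone. Each aldosterone array was above the vehicle array of its own replication, but the groups overlapped, since the vehicle array of replication 1 was above the aldosterone array of replication 3. The log2 difference was 0.39 ± 0.208 (SE), or 1.31-fold, and it ran from 0.23 to 0.54 when arrays or replications were left out. The replicate block narrowed the standard error to 0.147, with a 95% interval from 0.05 to 0.72. Isg15 is the member with the smallest p in both fits, so that this interval belongs to a gene picked from 34.

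Gbp3, a GTPase of the guanylate-binding family that acts against intracellular pathogens, read 817, 1004 and 933 after vehicle and 1284, 1328 and 1003 after aldosterone. The lowest aldosterone array, of replication 3, was level with the highest vehicle array, of replication 2. Its log2 difference was 0.37 ± 0.212 (SE). Other guanylate-binding genes did not share this pattern. Gbp7 read 2321, 2303 and 3783 after vehicle and 3256, 2326 and 3740 after aldosterone, high in replication 3 in both groups and nearly level between the groups in replications 2 and 3. Gbp2 read 1695, 1041 and 979 after vehicle and 1158, 1314 and 1187 after aldosterone, lower in replication 1 and higher in the other two.

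The genes of the Ifit family, whose products bind viral RNA, had negative log2 differences in 2 of 3 cases. Ifit2 read 1999, 1422 and 1357 after vehicle and 1553, 1228 and 1175 after aldosterone, lower within every replication, but the aldosterone array of replication 1 was above the vehicle arrays of replications 2 and 3. Its log2 difference was -0.25 ± 0.217 (SE) on group alone and ± 0.162 with the block, and it ran from -0.37 to -0.08 when arrays or replications were left out. Ifit1 read 865, 484 and 368 after vehicle and 768, 284 and 394 after aldosterone, a log2 difference of -0.25 ± 0.425 (SE). Ifit3 read 2032, 1479 and 581 after vehicle and 1855, 1345 and 952 after aldosterone, a log2 difference of 0.14 ± 0.418 (SE). It was lower in replications 1 and 2 and higher in replication 3, and without replication 3 the log2 difference was -0.13.

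The Ifitm genes encode small membrane proteins, several of which restrict the entry of viruses, and all 4 tested ones had log2 differences above 0. Ifitm3 read 7343, 7384 and 7783 after vehicle and 8535, 7688 and 8979 after aldosterone, a narrow spread, with only the aldosterone array of replication 2 below the highest vehicle array. Its log2 difference was 0.16 ± 0.126 (SE) on group alone and ± 0.0882 with the block. Ifitm2 had the largest log2 difference of the 34 tested members and a wide spread, with 461, 267 and 423 for vehicle and 801, 557 and 353 for aldosterone, a log2 difference of 0.48 ± 0.371 (SE). Ifitm1 had a log2 difference of 0.06 and Ifitm10 of 0.02, and both were lower in replication 2 and higher in replications 1 and 3.

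Ifi30, a lysosomal thiol reductase of antigen processing, read 3577, 4775 and 3279 after vehicle and 5673, 5348 and 3012 after aldosterone. Replication 3 was lowest in both groups, and the log2 difference was 0.23 ± 0.252 (SE). The remaining tested members were Ifi47, an immunity-related GTPase, with a log2 difference of 0.21, the exonuclease Isg20 with 0.13, Ifi35 with 0.03 and Ifi27 with -0.01. Ifi47 was higher in replications 1 and 2 and lower in replication 3, with log2 differences of 0.22, 1.15 and -0.73 in replications 1 to 3.

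Between the replications, Ifit3 was the only member past the threshold. Limma's F test across replications, with the treatment in the model, called 1 of the 34 tested members, Ifit3, which is 2.94% of them, against 7.82% of all tested probe sets; 0 to 5 members were called when single arrays were left out. The unadjusted p was under 0.05 for 8 members (23.5%), against 27.5% of all tested probe sets. The order of the replications was the same in the vehicle and the aldosterone arrays for 10 members (29.4%), against 31.8%. The highest mean fell in replication 1 for 16 members (47.1%), against 30.6% of all tested probe sets, in replication 2 for 10 (29.4%), against 33.2%, and in replication 3 for 8 (23.5%), against 36.2%.

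**Figure D4:**
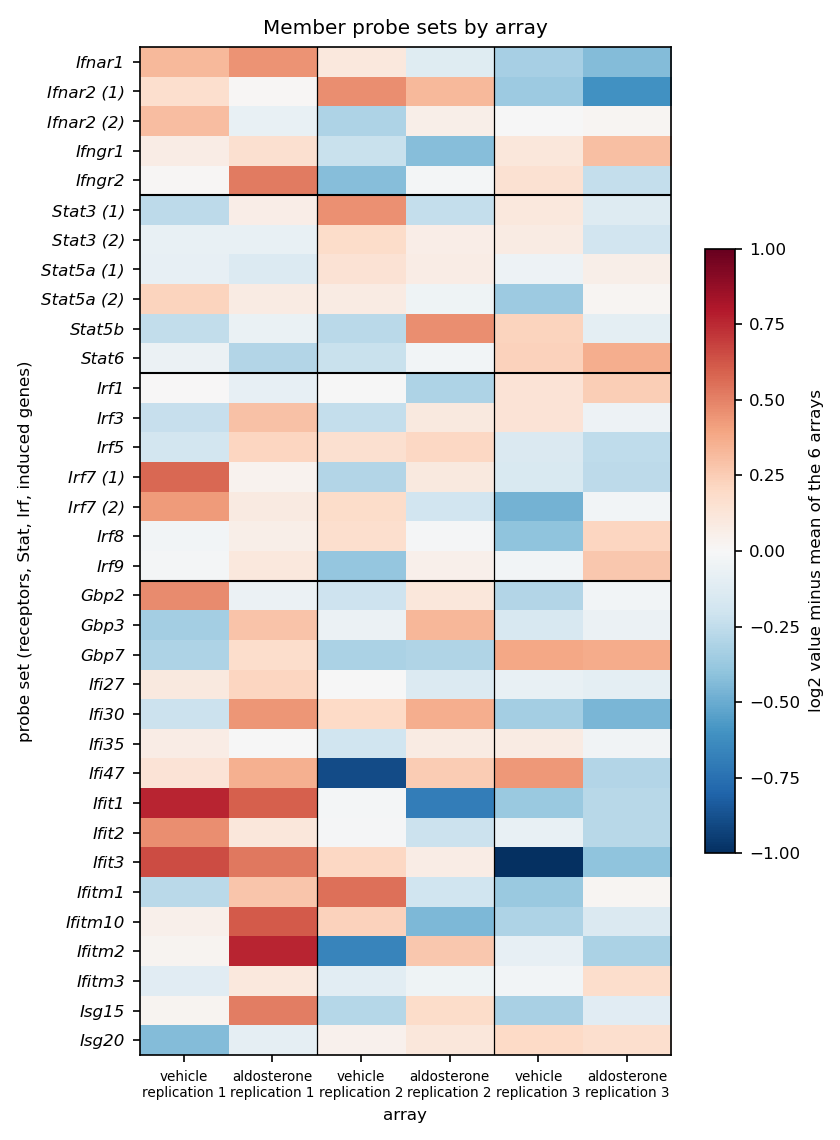
Log2 value of each of the 34 tested member probe sets on each array, minus the mean of its 6 arrays; red is above and blue below that mean, colours are saturated at 1 and -1, and vertical lines part the replications. Ifit1, Ifit2 and Ifit3 are red in both arrays of replication 1, and the row of Irf9, in faint colours, is the only one red in all 3 aldosterone columns and blue in all 3 vehicle columns.

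All 3 Ifit genes were highest in replication 1 in both treatments. The 2 arrays of a replication averaged 1944, 1412 and 767 for Ifit3 in replications 1 to 3, 817, 384 and 381 for Ifit1, and 1776, 1325 and 1266 for Ifit2. The replications with the highest and lowest log2 mean were 2.50-fold apart for Ifit3 (adjusted p = 0.0346 by limma's F test), 2.04-fold for Ifit1 (0.149) and 1.38-fold for Ifit2 (0.246). The call of Ifit3 by limma was lost without the vehicle array of replication 1, where the adjusted p was 0.168, without its aldosterone array (0.111), without the vehicle array of replication 3 (0.139) and without the intensity trend (0.160).

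Of the 10 members with the smallest p across replications, the others did not pass. Ifnar1 was highest in replication 1 and lowest in replication 3 in both groups, 1.70-fold apart, with an adjusted p of 0.0669 by limma, and it passed without the vehicle array of replication 2 (0.0227) or its aldosterone array (0.0164). The Ifnar2 probe set 101014_at was highest in replication 2 and lowest in replication 3, 1.84-fold apart (0.0763), which its other probe set, at 1.19-fold (0.771), did not share. Gbp7 (1.61-fold, 0.0763) and Ifngr1 (1.44-fold, 0.0915) were highest in replication 3 and lowest in replication 2, and Stat6 (1.39-fold, 0.123) was highest in replication 3. Ifi30 was highest in replication 2 (1.60-fold, 0.0872). Isg15 was highest in replication 1 (1.40-fold, 0.210), and Irf1 in replication 3 (1.27-fold, 0.235). Ifnar1 and this Ifnar2 probe set were thus lowest in replication 3, and Ifngr1 in replication 2.

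The promoter letters sorted the tested members as follows, counted by gene on its brightest probe set and as a description only. Of the 8 tested genes with an ISRE core, 7 had a log2 difference above 0, 3 were higher in all 3 replications and 5 were highest in replication 1. Of the 21 tested genes with windows but no core, 14 lay above 0, 1 was higher and 2 were lower in all 3 replications, and 7 were highest in replication 1. The median log2 difference was 0.16 with and 0.03 without a core. Of all tested probe sets 49.9% lay above 0, and 30.6% were highest in replication 1. In all 3 replications 10.5% of them were higher and 11.5% lower. With aldosterone 0 genes passed the threshold with or without a core, and the difference between these small sets was not tested. Of the 9 tested genes with a GAS, 5 lay above 0, with a median log2 difference of 0.03, and of the 20 without one 16 did, with a median of 0.12.

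Genes of the same pathway outside the symbol rule were followed as a list of 110 symbols, with 78 of them present on the array and 56 tested, on the brightest probe set of each. With aldosterone 0 of the 56 passed in either direction, with 28 above and 28 below 0 and a median log2 difference of -0.002. By limma on group alone 0 had an unadjusted p under 0.05, against 0.966% of all tested probe sets. With the block 2 did, Ccl2 and B2m, the light chain of class I molecules, against 3.35% of all tested probe sets. Of the 6 ligand genes on the array, Ifnb1, Ifng, Ifna2, Ifna4 and Ifna11 were below the limit for testing. Ifna5 was above it and read 872, 1360 and 874 after vehicle and 1251, 924 and 863 after aldosterone, a log2 difference of -0.02 ± 0.255 (SE); its probe set bears the letter f. The 5 smallest p-values belonged to Tyk2, Ifih1, Ptpn1, Trafd1 and Tap2. The kinase Tyk2, which is bound to Ifnar1, read 823, 1188 and 1045 after vehicle and 2018, 977 and 1518 after aldosterone, a log2 difference of 0.50 ± 0.279 (SE). The virus sensor Ifih1 read 1236, 1019 and 1185 after vehicle and 1147, 873 and 554 after aldosterone, a log2 difference of -0.45 ± 0.276 (SE). Ifih1 was lower within every replication, whereas Tyk2 was higher in replications 1 and 3 and lower in replication 2. The phosphatase Ptpn1 read 6314, 4850 and 5604 after vehicle and 6052, 6491 and 7279 after aldosterone, a log2 difference of 0.24 ± 0.150 (SE). Trafd1 read 1741, 2017 and 1847 after vehicle and 1417, 1537 and 1670 after aldosterone, a log2 difference of -0.27 ± 0.170 (SE). Its groups did not overlap, which 2.27% of all tested probe sets showed in the lower direction. The groups of Ptpn2, on the same list, did not overlap in the higher direction (1.91%), with a log2 difference of 0.21 ± 0.162 (SE). The peptide transporter Tap2 read 555, 937 and 550 after vehicle and 553, 421 and 421 after aldosterone, a log2 difference of -0.47 ± 0.306 (SE), nearly level in replication 1.

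Between replications 5 of the 56 passed limma's F test, or 8.93%, against 7.82% of all tested probe sets, all of them induced genes. Without the intensity trend 0 of the 56 passed. The chemokine Ccl2 read 40928, 20513 and 10524 after vehicle and 42157, 24618 and 15465 after aldosterone, 3.25-fold apart and highest in replication 1, with an adjusted p of 5.25e-04 by limma. The GTPase Irgm1 read 2819, 1232 and 1791 after vehicle and 2854, 1051 and 1668 after aldosterone, also highest in replication 1, 2.43-fold apart (0.0111). The class I histocompatibility genes H2-D1 (1.44-fold, 0.0178) and H2-Q4 (1.45-fold, 0.0253) were highest in replication 3, and Ly6e (1.38-fold, 0.0212) in replication 2. The probe sets of H2-D1, H2-Q4 and Ly6e bear the letter f, so related transcripts may share them. Usp18, the protease that removes Isg15 from proteins and restrains Ifnar2 signalling, was named after its values were seen: it read 808, 524 and 324 after vehicle and 1096, 547 and 423 after aldosterone, again highest in replication 1, 2.35-fold apart, with an adjusted p of 0.0898 by limma.

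Over the whole list, replication 1 held the highest mean of 18 of the 56 genes, replication 2 that of 19 and replication 3 that of 19. The summed intensity of the epithelial markers, averaged over the 2 arrays, was 73643, 74558 and 50459 in replications 1 to 3, and that of the leukocyte markers 10518, 12093 and 8894. The sums were 6429, 5640 and 6572 for collecting duct, 7033, 8952 and 6708 for fibroblast and 2004, 1649 and 1837 for endothelial markers. Bright genes weigh most in such sums. Among the epithelial markers Cldn4 averaged 11870, 10306 and 2435, while Krt18 averaged 15135, 12947 and 13104. Of the leukocyte markers, Cd14 averaged 5847, 6346 and 4467. The epithelial, leukocyte and fibroblast sums were lowest in replication 3 and the other two in replication 2, and their part in the differences between replications was not tested.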

How the data were processed

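The values used were the single-colour oligonucleotide array intensities of 3 vehicle and 3 aldosterone arrays of mIMCD3 cells, as deposited by the authors on a linear scale. The sources used here do not give the software and normalization behind them. As the 2% trimmed means of the arrays lay more than 10% apart, each array was scaled to their mean, 2090, by factors of 0.838 to 0.840 and, for the aldosterone array of replication 3, 24.2. Scaled medians were then 747 to 843, with the lowest on the aldosterone array of replication 3. Every log2 difference of replication 3 rests on this array. No read or spot depth applies, and the number of arrays limits the precision.

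Probe sets took gene symbols from the platform annotation, in which 10833 of 12422 had 1 symbol, 396 several and 1193 none; all 42 member genes were found in the RefSeq table of GRCm38.p6 under the same symbol. Values were taken as log2(intensity + 53.0), the pseudocount being the 10th percentile, and probe sets with a mean log2 value at or above the 40th percentile, 8.87, were tested. limma 3.58.1 in R 4.3.3 (lmFit and eBayes with an intensity trend) was fitted on treatment alone and, for the replications, as an F test with treatment in the model, with Benjamini-Hochberg adjustment over all 7453 probe sets and a threshold of 0.05. The fits were first tested on simulated data. Exact permutation of 3 against 3 arrays cannot go below p = 0.1.

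Arrays of the same replication number deviated together. The correlation of their deviations from the group means was 0.377, 0.387 and 0.471 for the 3 numbers. It was -0.279 to -0.0853 for pairs with different numbers, so the numbers pair the arrays. Standard errors with the replicate block are printed for a few members only, and the others are those on group alone. The block also narrowed some that are not printed, to 0.211 for Ifit3 and 0.147 for Ifnar1. Values of every array are given for receptors, tested Stat and Irf probe sets, and the 10 members with the smallest p in each comparison; of other pathway genes, the 5 with the smallest p in each comparison are named, H2-D1, H2-Q4 and Ly6e without their array values. The members, gene lists, motifs and tests were chosen with earlier results of these data known. Alternatives were other scalings, pseudocount, filters, no trend, a plain per-probe test, 1 probe set for each gene and leaving out arrays or replications.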

Additional observations from a re-analysis of the deposited data

How the results depend on the processing

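No member passed the aldosterone test under any alternative. Of all tested probe sets 0 passed as well, except 1 without the vehicle array of replication 2, so the members did not differ in this from the array. The replicate block called 0 members too, with 1 at an unadjusted p under 0.05 by limma, against 3.35% of all tested probe sets. Of the 8 other settings, the filters, no trend, the replicate block and the plain test leave each log2 difference as it is. Among the other scalings and the pseudocount, only the common median turned a direction, to 0.0209 for Stat5a 100422_i_at and 0.0155 for Ifi27. Members lower in every replication numbered 5 without a filter and 1 with the filter at the 60th percentile. Across replications, members called by limma numbered 3 with the common median, 0 without the intensity trend (which called 2 of all probe sets), 2 with replication alone and 0 to 5 on leaving out an array (44 to 1292 of all probe sets); other pathway genes called numbered 3, 0 and, on leaving out an array, 1 to 10. The share of genes with an ISRE core was 18.9% with a C fixed after the first GAAA, against 0.792% of all genes. With arrays or replications left out, where fewer replications count, 7 to 13 members were higher and 4 to 8 lower in every replication, and the median log2 difference was -0.0323 to 0.0917. Counts in this paragraph that stand without the share of all tested probe sets are not read as a result about the list.

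Of the 34 members, 9 kept their direction on leaving out arrays or replications: Gbp3, Ifi30, Ifit2, Ifitm2, Ifitm3, Irf3, Irf9, Isg15 and Stat3 99100_at. The other 25 changed it, with log2 differences of Gbp2 (-0.13 to 0.29), Gbp7 (-0.00112 to 0.39), Ifi27 (-0.12 to 0.0538), Ifi35 (-0.0955 to 0.10), Ifi47 (-0.26 to 0.68), Ifit1 (-0.61 to 0.0677), Ifit3 (-0.36 to 0.50), Ifitm1 (-0.18 to 0.47), Ifitm10 (-0.28 to 0.37), Ifnar1 (-0.31 to 0.13), Ifnar2 101014_at (-0.41 to 0.0786), Ifnar2 101015_s_at (-0.18 to 0.19), Ifngr1 (-0.12 to 0.24), Ifngr2 (-0.0394 to 0.46), Irf1 (-0.24 to 0.037), Irf5 (-0.0318 to 0.27), Irf7 104669_at (-0.33 to 0.18), Irf7 162202_f_at (-0.35 to 0.10), Irf8 (-0.045 to 0.35), Isg20 (-0.0557 to 0.26), Stat3 99099_at (-0.46 to 0.0485), Stat5a 100422_i_at (-0.0648 to 0.0629), Stat5a 100423_f_at (-0.14 to 0.16), Stat5b (-0.0735 to 0.46) and Stat6 (-0.14 to 0.18). The causes of these changes were not tested. With 3 arrays a group, a difference the size of the members' median standard error, 0.224 on the log2 scale on group alone and 0.177 with the block, was not detectable. Much larger differences could also go uncalled. Sgk1, at a log2 difference of 1.63 ± 0.223 (SE), had an adjusted p of 0.242 by limma on group alone. With the block its standard error was 0.176 and its adjusted p by limma 0.0509, still not under the threshold.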
